A study of Homo sapiens with 9 samples.

Results

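The NRF2 antioxidant response genes are a set of 10 human genes chosen by symbol, namely NFE2L2, KEAP1, GCLC, GCLM, NQO1, HMOX1, TXNRD1, SRXN1, OSGIN1 and FTL, out of 64253 genes in the count table. All 10 symbols were found, each on a single row. RNA was sequenced from EPC2, which the labels describe as a normal squamous cell line of the human esophagus, kept in keratinocyte medium with added pituitary extract and growth factor. The 3 groups hold 3 libraries each. The first group received a FOXF1 plasmid and the second an empty vector, both carried by the lipid reagent Lipofectamine 2000, and the third was untreated. FOXF1 encodes a forkhead transcription factor of mesenchyme. Both transfected groups thus share the reagent and a vector, and the untreated group had neither. The sources used here do not give the plasmid's promoter, its amount or the time between transfection and harvest. The design text names biological triplicates without describing the cultures, so the p-values reflect the spread among the deposited libraries.

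The libraries held 34390666 to 39973289 counts. A gene without a read could have a level of up to 0.0751 to 0.0872 CPM (reads scaled to the library total), with 3 counts as the limit. Such limits cover counting error only. FOXF1 itself had 367, 184 and 141 reads with the FOXF1 plasmid, 0, 0 and 6 with the empty vector, and 1, 0 and 0 in untreated cells. The 7 squamous markers TP63, KRT5, KRT14, KRT13, KRT4, SOX2 and DSG3 summed to 0.323 to 0.56 CPM with the FOXF1 plasmid, 0.227 to 0.504 CPM with the empty vector and 0.369 to 0.597 CPM in untreated cells. TP63 and SOX2 had no read in any library. The keratins of simple epithelium, KRT8, KRT18, KRT7 and KRT19, summed to 3939 to 4194 CPM with the FOXF1 plasmid, 3432 to 3852 CPM with the empty vector and 4041 to 4672 CPM in untreated cells. The defining markers of the labelled squamous type were therefore at or near 0 in all 9 libraries. Summed fibroblast, leukocyte and endothelial markers stayed at or below 0.193, 0.22 and 0.933 CPM in every library. The mitochondrial genome gave 14.1 ± 0.517% of the counts with the FOXF1 plasmid, 11.2 ± 0.761% with the empty vector and 20.9 ± 2% in untreated cells (SD, n = 3 each).

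NRF2, the product of NFE2L2, is a transcription factor that switches on genes against oxidants and reactive chemicals. KEAP1 holds NRF2 in the cytoplasm and presents it to a ubiquitin ligase for breakdown, and oxidants that modify KEAP1 let NRF2 build up. NRF2 then pairs with small MAF proteins on a DNA motif, the antioxidant response element. NRF2 is governed mainly through the stability of its protein, so its mRNA need not change when the response is on. Loss of KEAP1 or gain of NRF2 function is common in squamous cancers, those of the esophagus among them.

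The genes were also set beside their promoter sequences, because the antioxidant response element is a short word that can be read in DNA. RefSeq (GRCh38.p14) gave 12 windows of 300 bases, from 250 bases before to 50 bases after a transcription start, for 9 of the 10 genes. HMOX1 was not among the 9. The core of the element, TGACNNNGC, was searched on both strands, and it occurred in 4 of the 12 windows. These belong to 3 genes, TXNRD1, GCLM and KEAP1. The same word occurred in 4687 of 35116 promoter windows in the table, or 13.35%. The 4 windows are shown because they hold the word, and because TXNRD1 among them is the gene that was called changed. Each runs 5′ to 3′ along its own gene, and the capitals mark the core word as read on either strand.
TXNRD1 upstream start, chr12:104215529-104215828, plus strand: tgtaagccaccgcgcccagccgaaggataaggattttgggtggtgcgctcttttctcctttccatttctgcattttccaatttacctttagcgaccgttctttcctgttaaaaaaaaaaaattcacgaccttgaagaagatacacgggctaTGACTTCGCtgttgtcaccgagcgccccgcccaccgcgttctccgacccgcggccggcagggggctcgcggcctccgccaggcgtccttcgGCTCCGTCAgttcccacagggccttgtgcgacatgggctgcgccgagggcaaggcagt
TXNRD1 downstream start, chr12:104286782-104287081, plus strand: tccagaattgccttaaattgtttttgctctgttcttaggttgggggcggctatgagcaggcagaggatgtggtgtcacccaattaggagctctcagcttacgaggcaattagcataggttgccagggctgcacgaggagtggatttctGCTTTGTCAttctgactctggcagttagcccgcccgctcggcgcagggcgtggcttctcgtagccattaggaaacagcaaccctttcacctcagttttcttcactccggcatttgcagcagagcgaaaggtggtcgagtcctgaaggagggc
GCLM, chr1:93909381-93909680, minus strand: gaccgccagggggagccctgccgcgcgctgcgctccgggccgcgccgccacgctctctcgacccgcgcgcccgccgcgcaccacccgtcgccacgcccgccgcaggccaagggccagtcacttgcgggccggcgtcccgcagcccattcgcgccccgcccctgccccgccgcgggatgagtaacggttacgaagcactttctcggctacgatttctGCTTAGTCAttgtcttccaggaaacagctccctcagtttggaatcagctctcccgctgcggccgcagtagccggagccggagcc
KEAP1 downstream start, chr19:10502722-10503021, minus strand: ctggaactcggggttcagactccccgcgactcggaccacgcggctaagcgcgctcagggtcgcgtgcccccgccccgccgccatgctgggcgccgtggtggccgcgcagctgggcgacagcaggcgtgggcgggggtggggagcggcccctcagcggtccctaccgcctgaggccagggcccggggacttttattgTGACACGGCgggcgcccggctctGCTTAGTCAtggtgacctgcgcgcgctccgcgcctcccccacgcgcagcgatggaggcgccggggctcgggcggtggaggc

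Distances are counted to the first capital of a match as printed. For a match on the opposite strand, that base is the last of TGACNNNGC. In the TXNRD1 upstream window the word lay 99 bases before the start on the gene's strand, and 8 bases before it on the opposite strand. The TXNRD1 downstream window held it on the opposite strand, at 102 bases before the start. In GCLM it lay 34 bases before the start on the opposite strand, with the letters GCTTAGTCA. KEAP1 held the same 9 letters on the opposite strand, 31 bases before its downstream start. The core word occurred again 54 bases before that start, on the gene's own strand. A match describes these letters only. No match was found in the windows of NFE2L2, GCLC, NQO1, SRXN1, OSGIN1 or FTL, which says only that the word is not in those 300 bases.

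Levels of the 10 genes were compared after division by the merged exon length of each gene (GENCODE release 29). They are given as CPM per kilobase on library sizes scaled by TMM factors, which correct for differences in composition. Merged exons take in every annotated isoform, so this length can exceed that of the transcript present. The length is the same in every library, so ranges over libraries leave out its error. FTL, the light chain of the iron store ferritin, stood highest, with a median over the 9 libraries of 3913 and a range of 3325 to 4307 CPM per kilobase. NQO1, a quinone reductase, followed at 69.4, KEAP1 at 19.5 and HMOX1, the inducible heme oxygenase, at 9.41 CPM per kilobase. The ranges of these 4 genes over the 9 libraries did not meet each other or those of the genes below. TXNRD1, the cytosolic thioredoxin reductase, had a median of 4.32 and a range of 3.15 to 5.43 CPM per kilobase. OSGIN1, an oxidative stress induced growth inhibitor, had 4.15 and 3.94 to 5.09, so the order of these genes is not separated. GCLM, with a median of 2.17 and a range of 1.95 to 2.86 CPM per kilobase, overlapped NFE2L2, with 1.88 and 1.46 to 2.08. GCLC came next at 1.08 CPM per kilobase, with a range of 0.864 to 1.36 that did not reach NFE2L2. SRXN1 was last, at 0.042 CPM per kilobase, with a range of 0 to 0.138. Its level is uncertain, because 2292 of its 2698 exonic bases lie inside another gene on the same strand.

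**Figure D1:**
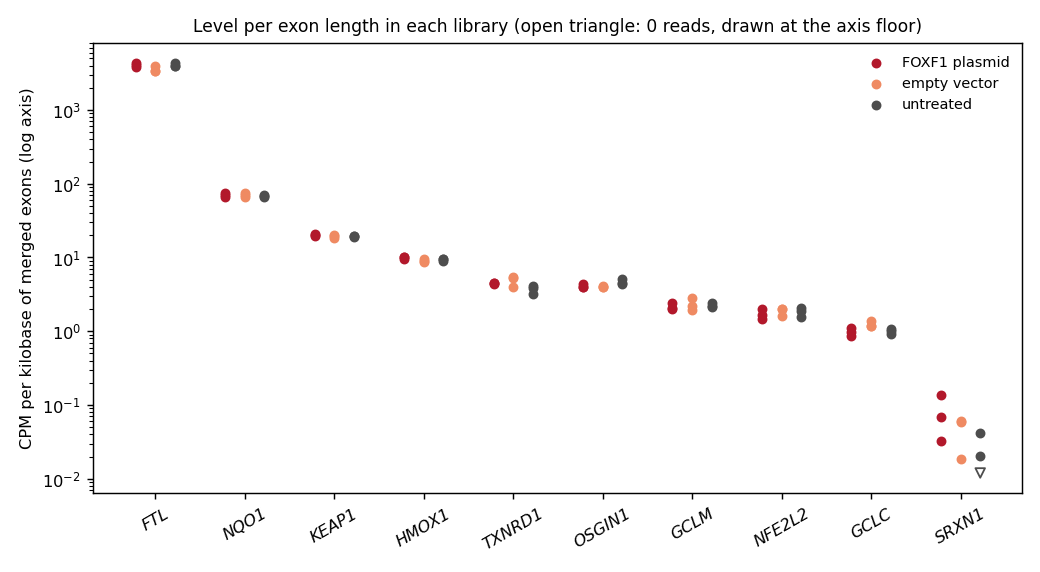
The level of each gene is plotted per library as CPM per kilobase of merged exons on a log axis, with the groups in separate columns and the genes ordered by median. FTL lies between 3325 and 4307 in all 9 libraries and SRXN1 at or below 0.138, and the spread within FTL, NQO1, KEAP1 and HMOX1 is small beside the distances between these genes.

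Of the 9 testable genes, 1 rose with the empty vector relative to untreated cells, TXNRD1, and 0 fell, where 10.2% of all tested genes were called higher and 9.37% lower. With the FOXF1 plasmid relative to untreated cells 0 of 9 were called, where 4.63% of all tested genes were called higher and 3.89% lower. Relative to the empty vector, the FOXF1 plasmid gave 0 called members of 9, where 0.055% of all tested genes were called higher and 0% lower. SRXN1 did not pass the filter on low counts. A gene was called at an adjusted p below 0.05 in edgeR's quasi-likelihood test with Benjamini-Hochberg adjustment, fitted to 16366 genes and all 9 libraries. Fold changes are log2, with an approximate standard error (SE), and levels below are TMM-scaled CPM. In bulk RNA, fewer cells with a transcript and less transcript per cell cannot be told apart.

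**Figure D2:**
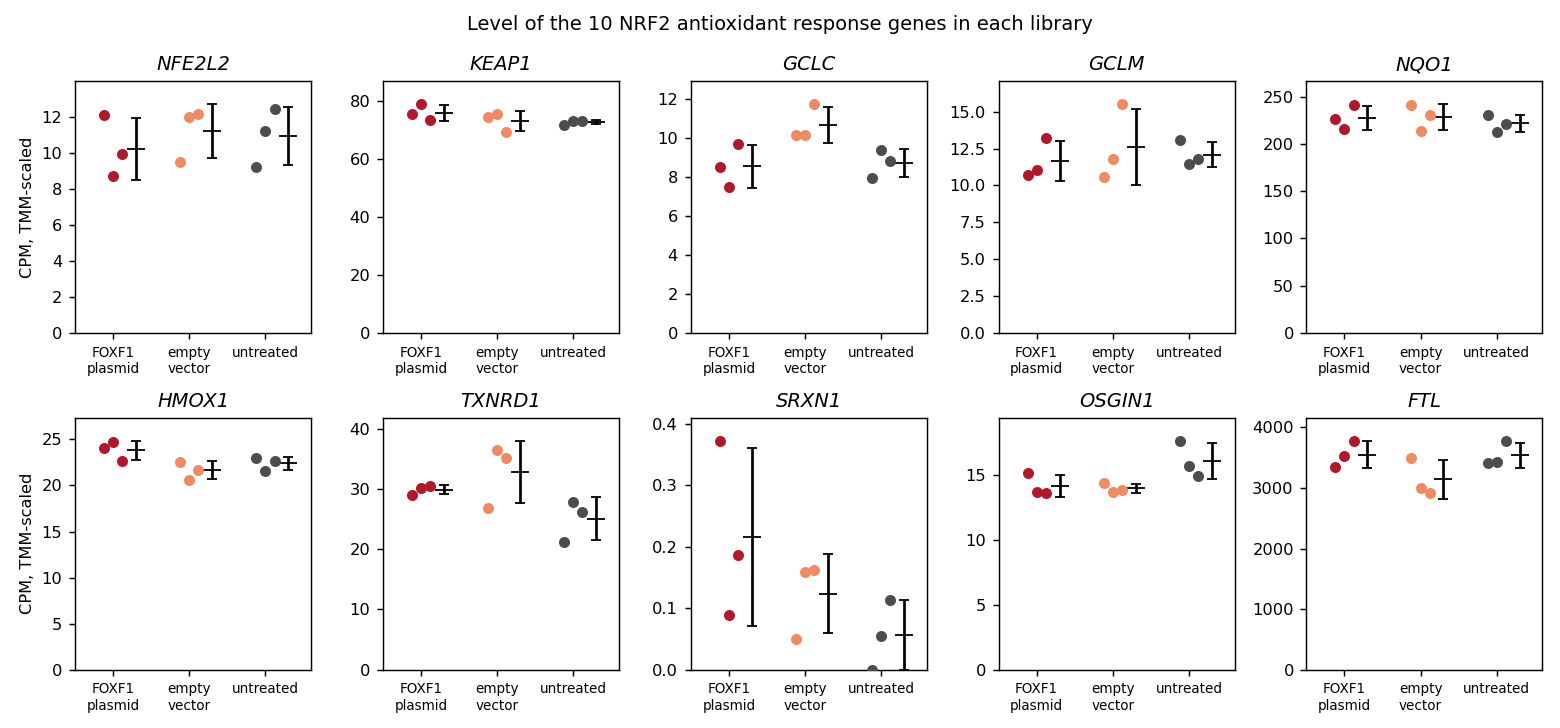
Each panel plots 1 gene as TMM-scaled CPM from 0, with a point per library and the mean ± SD (n = 3) beside each group. TXNRD1 is highest in empty vector replicates 2 and 3, at 36.5 and 35.1 CPM, and lowest in untreated replicate 1, at 21.1 CPM, while KEAP1 and NQO1 lie at nearly the same height in all 3 groups.

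Neither regulator was called in any of the 3 comparisons. NFE2L2 (ENSG00000116044, chr2:177227595-177392697, minus strand, GRCh38) had 12.1, 8.71 and 9.92 CPM with the FOXF1 plasmid, 9.48, 12.02 and 12.15 CPM with the empty vector, and 9.24, 11.2 and 12.4 CPM in untreated cells. The 3 groups overlapped throughout, and each held a library near 9 and a library near 12 CPM. The log2 fold change of NFE2L2 was 0.03 ± 0.14 (SE, adjusted p = 0.903, edgeR) for empty vector versus untreated. It was -0.10 ± 0.14 (adjusted p = 0.757) for FOXF1 plasmid versus untreated and -0.13 ± 0.14 (adjusted p = 0.83) against the empty vector. The annotation gives NFE2L2 1054 exonic bases in common with the same-strand gene AC019080.1, which had 132 reads in all against 3755 for NFE2L2. On the opposite strand, AGPS shares 54 exonic bases with NFE2L2 and had 3063 reads in all. AC079305.1, also on the opposite strand, shares 190 and had 34 reads.

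KEAP1 (ENSG00000079999, chr19:10486120-10503741, minus strand, GRCh38) had 75.5, 79.0 and 73.4 CPM with the FOXF1 plasmid, 74.4, 75.7 and 69.4 CPM with the empty vector, and 71.9, 73.0 and 73.2 CPM in untreated cells. It was the steadiest of the 10, with a coefficient of variation of 3.64% over the 9 libraries. The libraries with the FOXF1 plasmid all lay above the untreated ones, by a small margin, and the other groups overlapped. The log2 fold change was 0.01 ± 0.07 (SE, adjusted p = 0.956, edgeR) for empty vector versus untreated and 0.06 ± 0.07 (adjusted p = 0.628) for FOXF1 plasmid versus untreated. Against the empty vector, the FOXF1 plasmid gave 0.06 ± 0.06 (adjusted p = 0.847). The 95% interval for empty vector versus untreated was -0.13 to 0.14.

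The balance of activator and inhibitor was also read within each library, where the scaling of libraries plays no part. The log2 ratio of NFE2L2 to KEAP1 counts averaged -2.90 ± 0.271 with the FOXF1 plasmid, -2.71 ± 0.235 with the empty vector and -2.74 ± 0.204 in untreated cells (SD, n = 3 each). It differed by 0.03 between the empty vector and untreated cells (exact permutation test, two-sided, p = 0.8, or 0.96 adjusted over the 6 comparisons of a ratio). For the FOXF1 plasmid the differences were -0.16 from untreated cells and -0.19 from the empty vector (exact permutation p = 0.5 each, adjusted p = 0.75). With 3 libraries against 3 the smallest p this test allows is 0.1. No difference in this ratio was larger than the spread between libraries.

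Glutathione synthesis starts with glutamate-cysteine ligase, a dimer of the catalytic subunit encoded by GCLC and the modifier subunit encoded by GCLM. GCLC (ENSG00000001084, chr6:53497341-53616970, minus strand, GRCh38) had 8.50, 7.47 and 9.68 CPM with the FOXF1 plasmid, 10.2, 10.1 and 11.7 CPM with the empty vector, and 7.96, 9.37 and 8.82 CPM in untreated cells. All 3 libraries of the empty vector lay above all 6 others. The log2 fold change of GCLC was 0.29 ± 0.13 (SE) for empty vector versus untreated, with a 95% interval of 0.02 to 0.56, and it did not pass the adjustment (edgeR, adjusted p = 0.122). The FOXF1 plasmid gave -0.32 ± 0.13 against the empty vector (adjusted p = 0.465) and -0.03 ± 0.13 against untreated cells (adjusted p = 0.944). GCLC shares 529 exonic bases with the same-strand gene AL033397.1, which had 0 reads.

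GCLM (ENSG00000023909, chr1:93885205-93909456, minus strand, GRCh38) had 10.7, 11.1 and 13.2 CPM with the FOXF1 plasmid, 10.6, 11.8 and 15.5 CPM with the empty vector, and 13.1, 11.4 and 11.8 CPM in untreated cells. The groups overlapped, and the highest value belonged to empty vector replicate 3. The log2 fold changes were 0.06 ± 0.13 for empty vector versus untreated, -0.05 ± 0.13 for FOXF1 plasmid versus untreated and -0.11 ± 0.13 for FOXF1 plasmid versus empty vector (SE, edgeR, adjusted p = 0.794, 0.876 and 0.842). Within libraries the log2 ratio of GCLM to GCLC counts averaged 0.45 ± 0.114 with the FOXF1 plasmid, 0.23 ± 0.174 with the empty vector and 0.47 ± 0.22 in untreated cells (SD, n = 3 each). The difference between the empty vector and untreated cells was -0.25 (exact permutation p = 0.2, adjusted p = 0.6). The FOXF1 plasmid differed by 0.23 from the empty vector (exact permutation p = 0.2, adjusted p = 0.6) and by -0.02 from untreated cells (exact permutation p = 1).

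TXNRD1 (ENSG00000198431, chr12:104215779-104350305, plus strand, GRCh38) returns oxidised thioredoxin to its reduced form, at the cost of NADPH. It had 28.97, 30.23 and 30.41 CPM with the FOXF1 plasmid, 26.9, 36.5 and 35.1 CPM with the empty vector, and 21.1, 27.9 and 26.2 CPM in untreated cells. Replicates 2 and 3 of the empty vector were the highest of the 9 libraries, but its replicate 1 lay inside the untreated range, so these groups overlapped. The libraries with the FOXF1 plasmid lay close together, all above the untreated ones. TXNRD1 rose with the empty vector by a log2 fold change of 0.39 ± 0.10 (SE, 95% interval 0.18 to 0.60, edgeR quasi-likelihood test with Benjamini-Hochberg adjustment, adjusted p = 0.00707). The call rests on single libraries. Without empty vector replicate 2 the log2 fold change was 0.31 (adjusted p = 0.0745), and without untreated replicate 1 it was 0.27 (adjusted p = 0.0845). For the FOXF1 plasmid TXNRD1 had a log2 fold change of 0.25 ± 0.10 against untreated cells (95% interval 0.04 to 0.46, adjusted p = 0.138) and -0.14 ± 0.10 against the empty vector (95% interval -0.35 to 0.07, adjusted p = 0.721). The transfected groups overlapped, with means of 29.87 ± 0.789 CPM for the FOXF1 plasmid and 32.82 ± 5.2 CPM for the empty vector (SD, n = 3 each). Their difference was not called.

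NQO1 (ENSG00000181019, chr16:69706996-69726951, minus strand, GRCh38) reduces quinones by transferring a pair of electrons at once. It had 225.9, 215.7 and 241.2 CPM with the FOXF1 plasmid, 240.9, 214.0 and 230.9 CPM with the empty vector, and 230.9, 213.0 and 221.0 CPM in untreated cells. The groups covered nearly the same span. The log2 fold changes of NQO1 were 0.04 ± 0.07 for empty vector versus untreated, 0.04 ± 0.07 for FOXF1 plasmid versus untreated and -0.01 ± 0.07 for FOXF1 plasmid versus empty vector (SE, edgeR, adjusted p = 0.697, 0.797 and 0.985). With 7334 to 9934 reads in a library, NQO1 was among the best counted of the 10, and its 95% intervals ran from -0.14 to 0.18 over the 3 comparisons. An antisense gene, AC092115.2, shares 575 exonic bases with it and had 0 reads.

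SRXN1 (ENSG00000271303, chr20:646615-653370, minus strand, GRCh38) encodes sulfiredoxin, which repairs overoxidised peroxiredoxins. It had 15, 3 and 7 reads with the FOXF1 plasmid, 2, 7 and 7 reads with the empty vector, and 0, 2 and 4 reads in untreated cells. The groups overlapped at these counts. Pooled by group, the level was 0.227 CPM of the library total with the FOXF1 plasmid (exact 95% Poisson interval 0.147 to 0.334), 0.137 CPM with the empty vector (0.0782 to 0.222) and 0.0513 CPM in untreated cells (0.0188 to 0.112). Counting intervals leave out the spread between libraries. Without the filter on low counts SRXN1 was not called in any comparison (edgeR, adjusted p = 0.654 for empty vector versus untreated, 0.394 for FOXF1 plasmid versus untreated and 0.813 for FOXF1 plasmid versus empty vector). The annotation places 2292 of the 2698 exonic bases of SRXN1 inside the same-strand gene AL121758.1, which had 0 reads. Reads from these bases match both genes, so the level of SRXN1 is uncertain.

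HMOX1 and FTL handle heme and the iron it releases. HMOX1 (ENSG00000100292, chr22:35380361-35394214, plus strand, GRCh38) had 24.1, 24.7 and 22.6 CPM with the FOXF1 plasmid, 22.6, 20.6 and 21.7 CPM with the empty vector, and 23.0, 21.6 and 22.6 CPM in untreated cells. The lowest library with the FOXF1 plasmid lay just above the highest with the empty vector, at 22.63 and 22.59 CPM. HMOX1 had a log2 fold change of 0.09 ± 0.09 for FOXF1 plasmid versus untreated and 0.14 ± 0.09 against the empty vector (SE, edgeR, adjusted p = 0.616 and 0.658). The empty vector gave -0.05 ± 0.09 against untreated cells (adjusted p = 0.747), a value that was 0.19 with library totals alone.

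FTL (ENSG00000087086, chr19:48965301-48966878, plus strand, GRCh38) had 3347, 3522 and 3782 CPM with the FOXF1 plasmid, 3501, 3002 and 2920 CPM with the empty vector, and 3409, 3435 and 3778 CPM in untreated cells. Replicates 2 and 3 of the empty vector were the lowest of the 9 libraries, and its replicate 1 lay among the others. The log2 fold change of FTL was -0.17 ± 0.08 for empty vector versus untreated (SE, edgeR, adjusted p = 0.121, and 0.07 with library totals alone), which passed the threshold without empty vector replicate 1 (-0.26, adjusted p = 0.0107) and with DESeq2 (-0.20, adjusted p = 0.0393). It was 0.00 ± 0.08 for FOXF1 plasmid versus untreated (adjusted p = 0.988) and 0.18 ± 0.08 against the empty vector (adjusted p = 0.491). FTL alone took 0.3% to 0.385% of a library's counts, and with the other 9 genes 0.335% to 0.427%. The table lists 16 FTL pseudogenes, 7 of them with a read, whose reads came to 0.432% to 0.636% of those of FTL in a library, and adding them changed no FTL call.

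OSGIN1 (ENSG00000140961, chr16:83948282-83966332, plus strand, GRCh38) had 15.2, 13.7 and 13.6 CPM with the FOXF1 plasmid, 14.4, 13.7 and 13.8 CPM with the empty vector, and 17.6, 15.7 and 14.9 CPM in untreated cells. The 3 untreated libraries lay above all those of the empty vector, and untreated replicate 3 lay just below FOXF1 plasmid replicate 1. The log2 fold change of OSGIN1 was -0.20 ± 0.11 for empty vector versus untreated and -0.18 ± 0.11 for FOXF1 plasmid versus untreated (SE, edgeR, adjusted p = 0.185 and 0.328). With library totals alone the first value was 0.04. Between the FOXF1 plasmid and the empty vector it was 0.02 ± 0.11 (adjusted p = 0.971). OSGIN1 shares 481 exonic bases with the same-strand gene AC009119.2, which had 70 reads in all.

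Read as a group, 1 of the 9 tested genes was called higher and 0 lower for empty vector versus untreated. The share called higher, 11.1%, is near the 10.2% over all tested genes. Their median log2 fold change was 0.03, against 0.04 over all tested genes, and the values ran from -0.20 to 0.39. DESeq2 called 1 of the 9 higher, TXNRD1, and 1 lower, FTL, or 22.2%, where it called 24.1% of all genes to which it gave an adjusted p. By edgeR, 3 of the 9 had an unadjusted p below 0.05, where 31.5% of all tested genes did. In 2 of the 9, GCLC and OSGIN1, the groups did not overlap, as in 32.6% of all tested genes.

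For FOXF1 plasmid versus untreated, 0 of 9 were called in either direction. In this comparison 1 of the 9, TXNRD1, had an unadjusted p below 0.05 in edgeR, where 21.9% of all tested genes did, and DESeq2 called 0 as well, against 14% of all genes. In 2 of the 9, KEAP1 and TXNRD1, the groups did not overlap, as in 26.6% of all tested genes. The median was 0.00, against 0.02 over all tested genes, and the values ran from -0.18 to 0.25. The 95% intervals of the 9 genes lay within -0.40 to 0.46. The 2 comparisons with untreated cells share those 3 libraries, so they are not independent of each other.

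For FOXF1 plasmid versus empty vector, 0 of 9 were called. Here 2 of the 9, GCLC and FTL, had an unadjusted p below 0.05 in edgeR, where 9.43% of all tested genes did. In 2 of the 9, GCLC and HMOX1, the groups did not overlap, as in 13% of all tested genes. DESeq2 gave an adjusted p to 3 of the 9 and called 0 of them, against 2.93% of all genes. Values ran from -0.32 to 0.18 around a median of -0.01, and all 95% intervals lay within -0.59 to 0.34. A change of more than 0.59 on the log2 scale therefore lay outside the interval of each of the 9 genes.

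**Figure D3:**
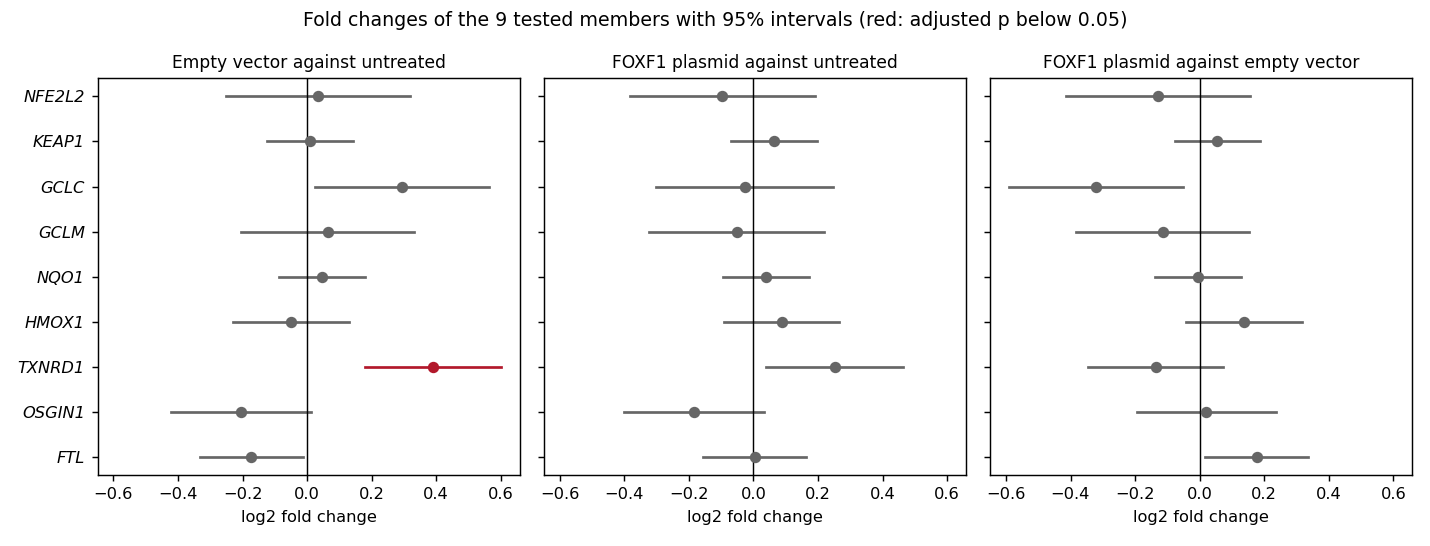
Points are log2 fold changes of the 9 tested genes in the 3 comparisons, bars are 95% intervals, and red marks an adjusted p below 0.05. TXNRD1 with the empty vector against untreated cells, at 0.39, is the single red point, and every interval in the 3 panels lies between -0.59 and 0.60.

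Small fold changes move with the way libraries are scaled, and the mitochondrial share given above was lowest with the empty vector and highest in untreated cells. With library totals alone, without composition factors, the median of all tested genes moved by 0.245 (log2) for empty vector versus untreated. It moved by 0.148 for FOXF1 plasmid versus untreated and by -0.098 for FOXF1 plasmid versus empty vector. KEAP1 then had a log2 fold change of 0.25, GCLC 0.54, NQO1 0.29 and TXNRD1 0.64 for empty vector versus untreated, and all 4 passed the threshold in edgeR. For FOXF1 plasmid versus untreated KEAP1 had 0.21, NQO1 0.19 and TXNRD1 0.40 with library totals, and these 3 passed as well. The median of all genes under that scaling stood at 0.289 for empty vector versus untreated, so KEAP1 lay just below it and NQO1 at it. It stood at 0.164 for FOXF1 plasmid versus untreated, where KEAP1 and NQO1 lay just above it. Of all genes called for empty vector versus untreated, 94.4% were higher with library totals, against 52.2% with TMM factors. The shares for FOXF1 plasmid versus untreated were 92.8% with library totals and 54.3% with TMM factors. TXNRD1 stood above the median of all genes for empty vector versus untreated under TMM factors, RLE factors (0.36) and library totals. The part of the mitochondrial reads in these values was not tested beyond a fit without the mitochondrially encoded genes, in which TXNRD1 had 0.38.

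**Figure D4:**
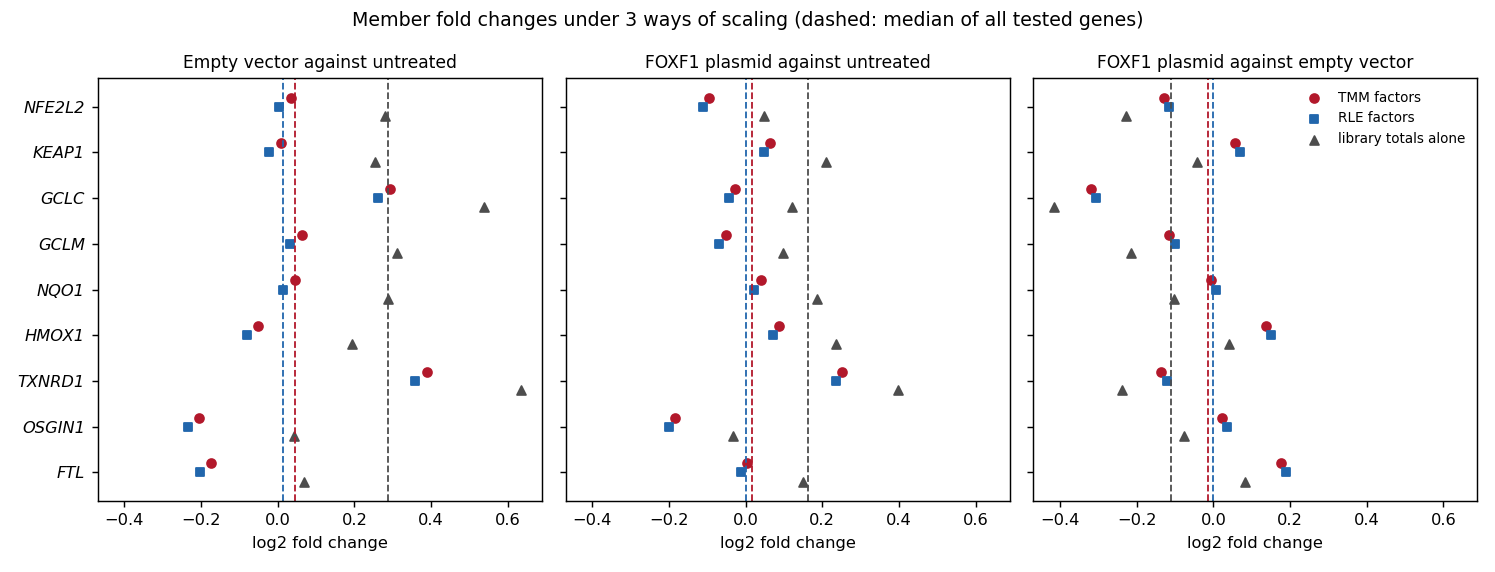
Log2 fold changes of the 9 tested genes are plotted under TMM factors, RLE factors and library totals alone, with the median of all tested genes as a dashed line of the same color. With library totals the points for empty vector versus untreated shift to the right together with the median, to 0.289, and TXNRD1 stays to the right of each line.

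The rest of the pathway was followed in 86 further genes, of which 77 rows passed the filter on low counts. For empty vector versus untreated 17 rose and 19 fell, or 46.8% of those tested, against 19.6% of all tested genes, and the median was 0.03. The FOXF1 plasmid gave fewer calls against untreated cells: 9 rose and 4 fell, or 16.9% against 8.52%, and the median was 0.02. Between the FOXF1 plasmid and the empty vector 0 of the 77 were called by edgeR, with 12 at an unadjusted p below 0.05, against 9.43% of all tested genes. DESeq2 called 3 of the 34 rows to which it gave an adjusted p, among them GPX4 and PRDX2, or 8.82% against 2.93% of all such genes. With library totals alone 39 rose and 4 fell with the empty vector, and 23 rose and 3 fell with the FOXF1 plasmid, both relative to untreated cells. Of all tested genes, 35% rose and 2.07% fell with the empty vector under that scaling, and 14.2% rose and 1.1% fell with the FOXF1 plasmid. Without empty vector replicate 2, both the rises and the falls for empty vector versus untreated numbered 12. Leaving out empty vector replicate 1 gave 3 rises for FOXF1 plasmid versus empty vector. No test set this list against other genes. It was chosen with earlier results of these data known, and the shares over all tested genes were not matched to it in read count.

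The partners and regulators of NRF2 held 5 rises and 3 falls among 13 tested genes for empty vector versus untreated, or 9 and 0 with library totals alone. For FOXF1 plasmid versus untreated they held 4 rises and 0 falls, or 7 and 0. Of all tested genes, 10.2% rose and 9.37% fell for empty vector versus untreated, or 35% and 2.07% with library totals alone. For FOXF1 plasmid versus untreated 4.63% rose and 3.89% fell, or 14.2% and 1.1% with library totals alone. MAFF, a small MAF partner of NRF2, had 12.4, 12.7 and 11.2 CPM with the FOXF1 plasmid, 12.5, 13.5 and 11.8 CPM with the empty vector, and 9.24, 5.76 and 6.24 CPM in untreated cells. Every transfected library exceeded every untreated one, and MAFF rose by 0.83 ± 0.14 with the empty vector (SE, adjusted p = 8.72e-05) and by 0.77 ± 0.14 with the FOXF1 plasmid (adjusted p = 0.000609, both edgeR). MAFK, another small MAF, rose by 0.40 with the empty vector and by 0.43 with the FOXF1 plasmid, whereas MAFG had 0.13 and was not called. Of the related cap'n'collar factors, NFE2L3 rose by 0.76 and NFE2L1 by 0.40 with the empty vector. With the FOXF1 plasmid, NFE2L3 rose by 0.45 and NFE2L1 by 0.30. The NFE2L3 call for the FOXF1 plasmid was lost in 6 of the 9 fits that left out a library, and that of NFE2L1 in 2.

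BACH1, a repressor that competes with NRF2 for the same motif, had 2.56, 1.97 and 2.35 CPM with the FOXF1 plasmid, 1.87, 2.68 and 3.74 CPM with the empty vector, and 1.54, 1.87 and 1.70 CPM in untreated cells. Its rise of 0.70 ± 0.25 with the empty vector passed narrowly (edgeR, adjusted p = 0.0477), the groups overlapped, and 8 of the 9 fits that left out a library lost the call. The BACH1 call was also lost in 6 of the 10 other settings, with an adjusted p of 0.0521 with RLE factors, 0.0571 with DESeq2, 0.0647 in a fit of the compared groups alone, 0.061 with a replicate block, 0.123 with GC content and length offsets and 0.151 with the offsets and block. BACH2, its relative, had 2 to 13 reads in a library and did not pass the filter on low counts. In the fit without mitochondrially encoded genes BACH2 did pass it, and it was not called (0.26, adjusted p = 0.85). The KEAP1 ligase was split. RBX1, its RING subunit, fell by 0.33 with the empty vector, and CUL3, its scaffold, had 0.12 and was not called. BTRC, part of a second ligase that marks NRF2, fell by 0.39. Among proteins that bind KEAP1 in competition with NRF2, DPP3 fell by 0.29, while SQSTM1 had 0.03 and PALB2 had 0.19, neither called. DCAF11, an adaptor of another ligase, had 0.03. MAFG, CUL3, SQSTM1 and DCAF11 passed the threshold upward with library totals alone, at 0.38, 0.36, 0.28 and 0.27. The median of all tested genes under that scaling stood at 0.289, above SQSTM1 and DCAF11. The falls of RBX1, BTRC and DPP3 did not pass with library totals, and RBX1 also lost its call without empty vector replicate 2 or untreated replicate 2.

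The list of glutathione synthesis, recycling and transfer gave 2 rises and 8 falls among 18 tested genes for empty vector versus untreated. For FOXF1 plasmid versus untreated it gave 1 rise and 2 falls. The importer SLC7A11, which is not an enzyme of glutathione, was among the rises with the empty vector. It was the 1 rise with the FOXF1 plasmid. With library totals alone the split turned to 4 rises and 2 falls with the empty vector, and to 4 rises and 1 fall with the FOXF1 plasmid. The shares over all tested genes were 10.2% higher and 9.37% lower with the empty vector, or 35% and 2.07% with library totals. They were 4.63% and 3.89% with the FOXF1 plasmid, or 14.2% and 1.1% with library totals. GSTM4, a glutathione transferase, had 29.99, 30.68 and 32.12 CPM with the FOXF1 plasmid, 31.6, 29.1 and 27.2 CPM with the empty vector, and 46.0, 48.1 and 43.4 CPM in untreated cells. It fell by 0.65 ± 0.08 with the empty vector (SE, adjusted p = 6.55e-07) and by 0.57 ± 0.08 with the FOXF1 plasmid (adjusted p = 1.16e-05, both edgeR), with no overlap between transfected and untreated libraries. GPX3, a secreted glutathione peroxidase, fell by 0.47 with the empty vector and by 0.26 with the FOXF1 plasmid. The GPX3 call for the FOXF1 plasmid was lost with library totals and in 3 of the 9 fits that left out a library. GSTM2 fell by 0.43 and GSTK1 by 0.37 with the empty vector, and neither was called with library totals, nor GSTM2 in 4 of the 9 fits that left out a library. GSTM genes are close copies, so reads may be split among them and their single values are uncertain. SLC7A11, the cystine importer that feeds glutathione synthesis, is named after its values were seen. It had 36, 39 and 27 reads with the FOXF1 plasmid, 35, 51 and 55 with the empty vector, and 13, 8 and 11 in untreated cells. SLC7A11 thus rose by 1.87 ± 0.41 with the empty vector (adjusted p = 0.0014) and by 1.60 ± 0.42 with the FOXF1 plasmid (adjusted p = 0.0136, both edgeR), on few reads. It was not called for the FOXF1 plasmid without FOXF1 plasmid replicate 2 (adjusted p = 0.0742) or untreated replicate 2 (adjusted p = 0.0725).

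Among thioredoxin, peroxiredoxin and glutaredoxin genes, 3 rose and 4 fell of 13 for empty vector versus untreated, and 2 rose and 2 fell for FOXF1 plasmid versus untreated. With library totals alone 7 rose and 2 fell with the empty vector, and 4 rose and 2 fell with the FOXF1 plasmid. Over all tested genes 10.2% rose and 9.37% fell with the empty vector, or 35% and 2.07% with library totals. The FOXF1 plasmid gave 4.63% and 3.89% over all tested genes, or 14.2% and 1.1% with library totals. TXNIP, which binds and inhibits thioredoxin, had 75.8, 74.3 and 91.9 CPM with the FOXF1 plasmid, 90.1, 91.1 and 87.7 CPM with the empty vector, and 45.6, 51.4 and 50.5 CPM in untreated cells. The transfected and untreated libraries were well apart, and TXNIP rose by 0.87 ± 0.08 with the empty vector (SE, adjusted p = 1.96e-09) and by 0.71 ± 0.08 with the FOXF1 plasmid (adjusted p = 1.63e-07, both edgeR). The peroxide-removing PRDX6 had 498.8, 487.7 and 496.1 CPM with the FOXF1 plasmid, 482.7, 399.5 and 442.2 CPM with the empty vector, and 702.0, 704.9 and 618.9 CPM in untreated cells. It fell by 0.61 with the empty vector and by 0.45 with the FOXF1 plasmid, without overlap. PRDX1 fell by 0.47 and 0.42 in the same comparisons, and PRDX2 by 0.37 with the empty vector, which was not called with library totals. GLRX, a glutaredoxin, rose by 0.57 with the empty vector. SESN2, a stress-induced sestrin, rose by 0.26 with the empty vector and by 0.25 with the FOXF1 plasmid. Between the transfected groups it was not called (-0.01). The SESN2 call for the FOXF1 plasmid was lost in 5 of the 9 fits that left out a library. It was also lost with RLE factors (edgeR, adjusted p = 0.0521) and without the filter on low counts (edgeR, adjusted p = 0.0634). Reads that match close copies of the PRDX genes may be split among them, so their single values are uncertain.

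Among the remaining lists, NADPH supply had 1 rise and 2 falls of 6 with the empty vector, and 0 called with the FOXF1 plasmid, both against untreated cells. IDH1, which makes NADPH in the cytosol, rose by 0.50 with the empty vector. Detoxification and efflux had 2 rises of 15 with the empty vector, TRIM16L at 0.49 and the export pump ABCC3 at 0.31. With the FOXF1 plasmid it had 1 rise, again ABCC3, at 0.40. Between the transfected groups ABCC3 was not called (0.09). Heme and iron handling had 2 rises and 2 falls of 9 with the empty vector, and 1 rise with the FOXF1 plasmid. TFRC, the transferrin receptor that brings iron into cells, had 27.8, 25.8 and 26.4 CPM with the FOXF1 plasmid, 24.6, 32.4 and 30.1 CPM with the empty vector, and 13.8, 15.3 and 16.5 CPM in untreated cells. Each transfected library exceeded each untreated one, and TFRC rose by 0.93 ± 0.10 with the empty vector (SE, adjusted p = 7.79e-08) and by 0.81 ± 0.10 with the FOXF1 plasmid (adjusted p = 2.43e-06, both edgeR). Superoxide and peroxide removal had 2 rises of 3 with the empty vector, where the FOXF1 plasmid gave 0. With library totals alone the empty vector gave 3 rises and 0 falls in NADPH supply, 8 and 0 in detoxification and efflux, 6 and 0 in heme and iron handling, and 2 and 0 in superoxide and peroxide removal. The FOXF1 plasmid then gave 2, 3, 2 and 1 rises in these lists, in that order, and 0 falls. All tested genes gave 10.2% higher and 9.37% lower with the empty vector, or 35% and 2.07% with library totals. For the FOXF1 plasmid these shares were 4.63% and 3.89%, or 14.2% and 1.1% with library totals.

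**Figure D5:**
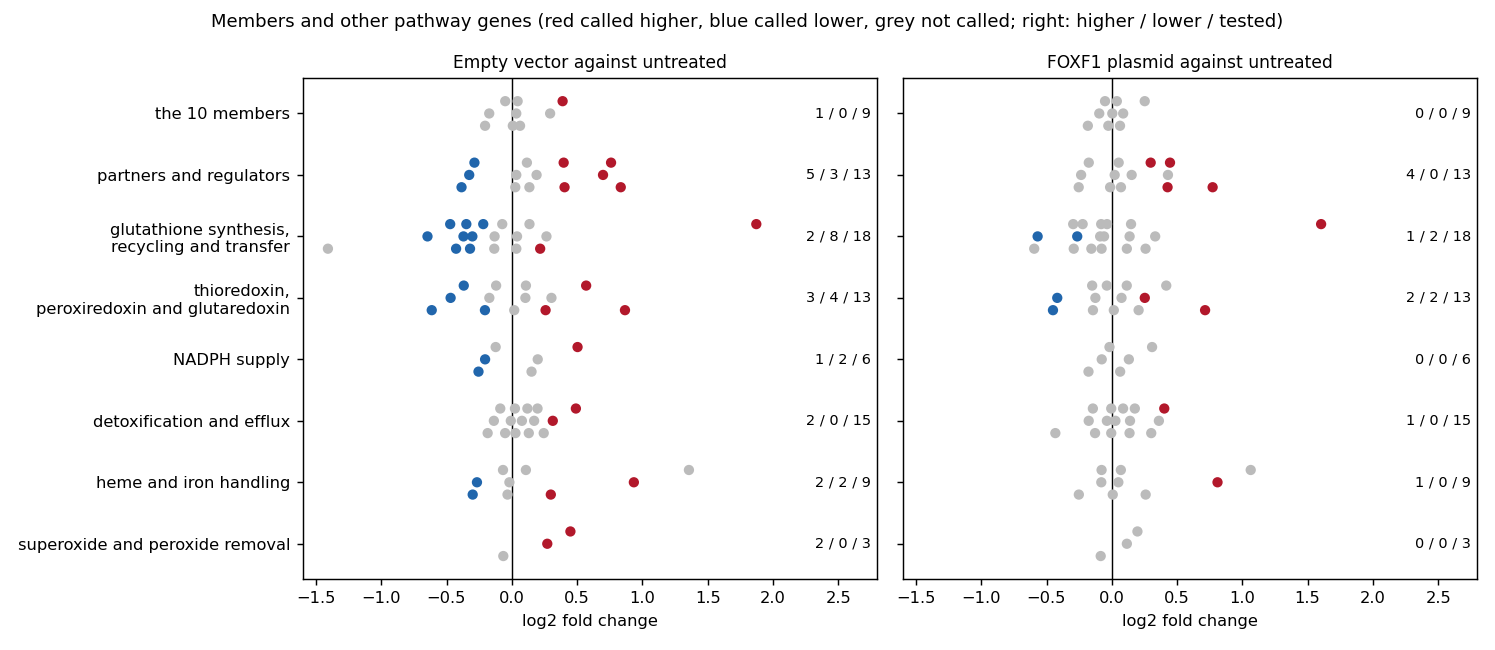
Points are log2 fold changes of the 9 tested members and of the 77 other tested pathway genes, by list, for the empty vector and for FOXF1 plasmid versus untreated, with called genes in color and the numbers higher, lower and tested at the right. The empty vector panel holds 17 rises and 19 falls among the other genes, and the FOXF1 plasmid panel holds 9 and 4.

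The genes whose log2 CPM ran most like that of NFE2L2 over the 9 libraries were POC5 (Pearson r = 0.962), PRDM4 (0.936) and SOCS4 (0.934). For TXNRD1 they included NOL11 (0.988) and SRP72 (0.973). All of these come from the 3 highest values among the tested protein-coding genes for each gene, over libraries that share their depth and composition, and they describe the pattern only.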

How the data were processed

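Per the labels' protocols, the EPC2 libraries came from a kit for mRNA that keeps the strand. The authors deposited a table of raw counts, 1 row per Ensembl identifier and 1 column per library. STAR 2.5.2b, HTSeq, bcl2fastq and GRCh38 are named in the submitters' processing notes. How strand, multiply matching reads and trimming were handled, and which annotation was counted, is not given in the sources used here.

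In R 4.3.3, edgeR 4.0.16 was run on the counts. Its filter filterByExpr (minimum count 10) kept 16366 genes. TMM factors scaled the library sizes, and a quasi-likelihood model with a mean per group was fitted to all 9 libraries, with Benjamini-Hochberg adjustment over all tested genes. A gene was called at an adjusted p below 0.05. The SE is the size of the log2 fold change over the root of the F statistic. The fit was also run on simulated counts with a known set of changed genes. Those counts had a like spread for every gene and, apart from the changed genes, the same composition in every library. They therefore say nothing on the calls that moved with the scaling or with a library left out. Ratios of counts were compared by exact permutation over libraries. Libraries of the same group differed beyond sampling noise (chi-square per degree of freedom 9.17 to 25.3), and all were kept.

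Coordinates, exon lengths and overlaps come from GENCODE release 29, which holds 56591 of the 64253 identifiers. Promoters come from RefSeq. Alternatives were RLE factors, library totals, other filters, DESeq2 1.42.0, a fit of the compared groups alone, a replicate block, GC content and length offsets, an adjusted p of 0.01, and each library left out. The members and lists were chosen with earlier results of these data known. Of the other pathway genes, the text names the 8 called genes with the largest rise and the 8 with the largest fall in each comparison (mean log2 CPM of at least 1), and every partner and regulator for the empty vector. Some genes are not reported here by name.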

Additional observations from a re-analysis of the deposited data

How the results depend on the processing

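Over the 27 fold changes of the members, 498 of 510 values under the alternatives stayed on the same side of the threshold, 2 lost a call and 10 gained one, and none changed direction with a call. Members called higher for empty vector versus untreated numbered 4 with library totals alone and 0 to 1 when a library was left out. Members called lower numbered 1 (FTL) with no filter on low counts (adjusted p = 0.0466) and 1 with DESeq2 (adjusted p = 0.0393), and 0 to 1 with a library left out. For FOXF1 plasmid versus untreated, members called higher numbered 3 with library totals alone. With the replicate block together with GC content and length offsets there was 1, TXNRD1 (0.23, adjusted p = 0.0366).

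Same-numbered libraries did not deviate together across all 3 groups, with r from -0.25 to 0.228 and 3 of 9 pairs over 0.1. Of the 9 libraries, 1 correlated best with its own number in both other groups. Between the empty vector and untreated cells the same-numbered pairs had r of 0.228, 0.094 and 0.077. The unlike-numbered pairs of these groups ran from -0.199 to 0.142. The replicate block alone called 1 member higher for empty vector versus untreated, as without it. The other pathway genes for FOXF1 plasmid versus untreated gave 15 rises and 11 falls with GC content and length offsets, 16 and 11 with the block added, and 8 falls with DESeq2. Over all genes, calls for empty vector versus untreated numbered 6059 with library totals, 2092 without empty vector replicate 2 and 2140 without untreated replicate 1, against 3209. Those for FOXF1 plasmid versus untreated numbered 2500 with library totals, 2105 with the offsets, 2170 with the offsets and block, and 817 to 1729 with a library left out, against 1394. For FOXF1 plasmid versus empty vector they numbered 96 without the filter, 94 with DESeq2, 22 with the offsets and block, 16 with the block or with RLE factors, 4 without mitochondrially encoded genes, and 1 (without FOXF1 plasmid replicate 2) to 326 (without empty vector replicate 1) with a library left out, against 9. The cause of these moves was not tested. SRXN1 and BACH2 had too few counts to pass the filter, and neither was called in a fit that kept it.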
